A study of Homo sapiens with 12 samples.

Results

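The CD83 locus was described here as the stretch of chromosome 6 from 14050000 to 14400000 (hg19), which holds the gene at 14.118 to 14.137 Mb and the sequence after it. Its members were the H3K27ac peaks that the 6 deposited lists place inside this stretch. Joined where they share a base, these peaks gave 10 regions of 48876 in the whole genome. The locus was chosen on its covered length: in the window of 14 to 15 Mb, 1.69 ± 0.699 kb were covered by peaks in CREBBP-KO clones and 2.20 ± 0.496 kb in EP300-KO clones, against 6.55 ± 1.46 kb in WT clones (SD, n = 2 each). All peaks of that window lay inside the locus in each of the 6 clones. Every difference between a knock-out and WT given for the locus is therefore a description, with no test.

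H3K27ac is an acetylated lysine of histone H3 found at active promoters and enhancers. Chromatin immunoprecipitation and sequencing located it in SUDHL4 cells, an established line from a germinal-centre type of diffuse large B-cell lymphoma (DLBCL). The 3 genotypes had 2 immunoprecipitated clones each, with a matching input for every clone. CREBBP-KO clones carry CRISPR/Cas9 disruptions aimed at CREBBP exons 15 and 20, and EP300-KO clones carry disruptions aimed at EP300 exons 17 and 24, 1 exon for each clone. For the first CREBBP-KO clone, label and protocol name different exons, and the protocol's is given here. WT clones were edited at the neutral gene PPP1R12C and retain both acetyltransferases by western blot. Every clone grew from a single cell, so a value measures the spread between clones of 1 line. The lists held 36096 and 41099 peaks in CREBBP-KO, 35054 and 35841 in EP300-KO and 46940 and 40658 in WT. The depth of each library is unknown, since the labels give only an average over samples. The cell type was checked at 5 B-cell genes (CD79A, MS4A1, PAX5, BCL6 and MME), all with covered bases within 5 kb of their starts in all 6 clones, summing to 28292 to 33012 bases. The starts of CD3E, CD14, LYZ and ALB, which mark T cells, monocytes and liver, had 0 covered bases in all clones.

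CD83 is a surface glycoprotein of the immunoglobulin superfamily. It appears on activated B cells and mature dendritic cells, and in germinal centres it marks the light zone, where B cells meet antigen and T-cell help. There, signals through CD40 act largely through NF-kB, a transcription factor for which CD83 is a known target gene. CREBBP and EP300 are paralogous acetyltransferases that place H3K27ac at enhancers and promoters. No RNA was measured in these samples, and in bulk chromatin fewer acetylated alleles and less acetylation per allele cannot be told apart.

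The bases before the CD83 starts are shown because the only peak at the gene that stayed nearly the same size in all clones lay at its start. RefSeq lists 2 starts of CD83 on the plus strand, 516 bases apart on GRCh38.p14. Each sequence gives the 250 bases before a start, in lower case, with capitals for matches to the NF-kB consensus of 10 letters on either strand.
CD83 first start, chr6:14117006-14117255: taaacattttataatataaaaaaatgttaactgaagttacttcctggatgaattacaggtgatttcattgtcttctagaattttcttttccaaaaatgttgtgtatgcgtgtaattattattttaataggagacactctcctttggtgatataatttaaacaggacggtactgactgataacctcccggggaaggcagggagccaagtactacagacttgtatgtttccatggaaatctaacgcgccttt
CD83 second start, chr6:14117522-14117771: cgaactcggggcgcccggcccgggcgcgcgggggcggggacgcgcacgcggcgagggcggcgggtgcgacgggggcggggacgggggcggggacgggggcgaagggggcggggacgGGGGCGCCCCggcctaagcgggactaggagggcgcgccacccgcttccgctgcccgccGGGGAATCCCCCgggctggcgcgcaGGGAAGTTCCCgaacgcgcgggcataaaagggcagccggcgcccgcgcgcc

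Both sequences differ in composition. The one before the second start is 83.2% G or C and holds 46 CG pairs, whereas the one before the first start is 34.8% G or C and holds 5, against a median of 58.0% over 35116 promoters of the same length. NF-kB matches formed 3 stretches before the second start, at 134 to 125, 76 to 65 and 51 to 41 bases before it, and none before the first. Some matches overlap each other or read the same on both strands. Of all promoters, 9.96% hold at least 1 such match. The GC box GGGCGG occurred 5 times before the second start and not before the first (42.6% of promoters hold it on either strand), and none of its matches overlaps an NF-kB match. The TATA box TATAAA was matched on both strands before the first start only, at 243 to 231 bases before it (10.7% of promoters). The CCAAT box CCAAT was in neither (32.0% of promoters). A match is a run of letters and not a measured binding site, and these positions belong to another genome build than the peaks.

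Over the whole locus, peaks covered 1194 and 2182 bases in the CREBBP-KO clones and 1854 and 2555 bases in the EP300-KO clones, against 7577 and 5518 bases in the WT clones. All 4 knock-out clones lay below both WT clones, and the knock-outs overlapped each other. How many windows show such a separation from WT was not counted, so nothing is read from it. Relative to the WT mean, the CREBBP-KO mean was 0.258 and the EP300-KO mean 0.337. Per Mb of each clone's whole list, the locus held 42.3 and 62.2 bases in CREBBP-KO and 71.1 and 97.5 in EP300-KO, against 224 and 176 in WT. On that scale too both WT clones lay above all 4 knock-out clones, and the CREBBP-KO and EP300-KO clones no longer overlapped. The whole lists covered 28.2 and 35.1 Mb in CREBBP-KO and 26.1 and 26.2 Mb in EP300-KO, against 33.9 and 31.3 Mb in WT. The smaller divisor raises the EP300-KO values, and the separation of the knock-outs on this scale was not tested. Peaks numbered 4 and 8 in CREBBP-KO and 5 and 8 in EP300-KO, against 10 and 9 in WT.

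**Figure D1:**
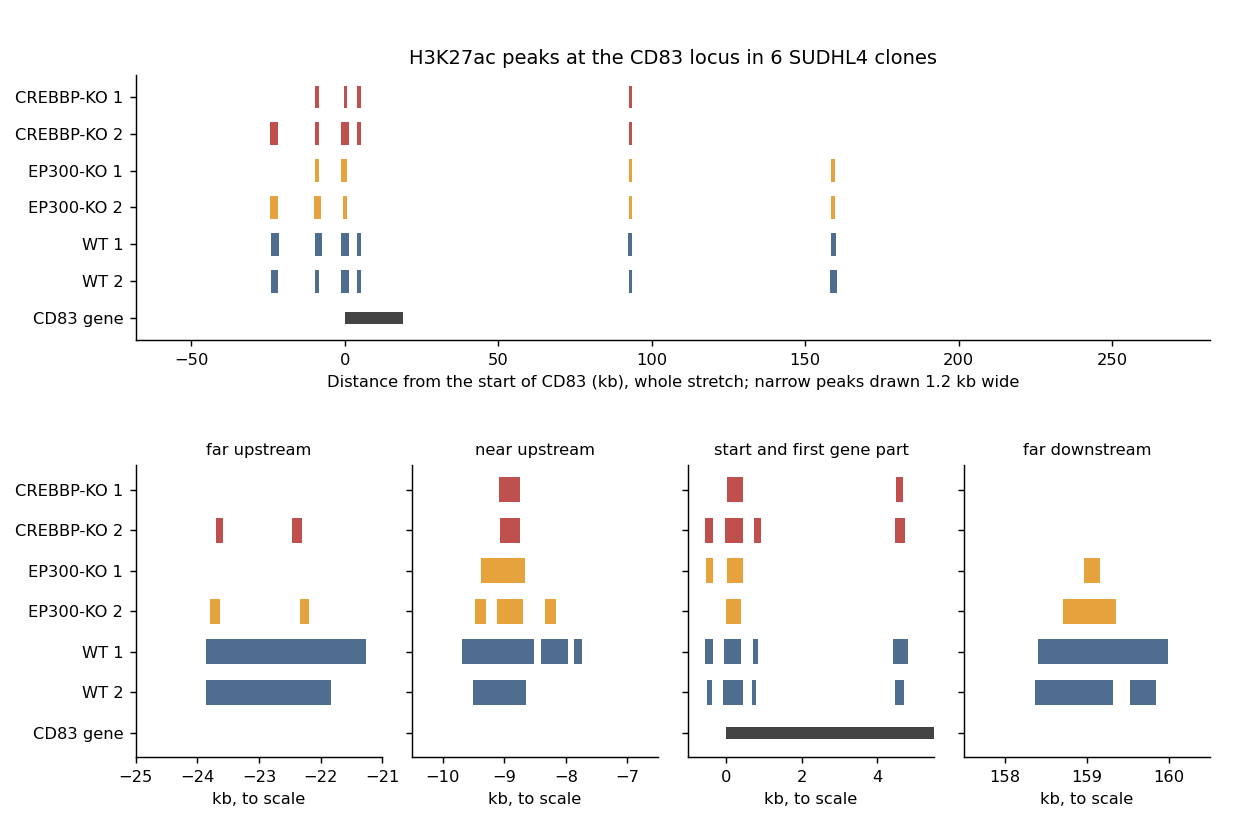
Peaks of each clone by distance from the start of CD83 in kb, over the whole locus above and at 4 places to scale below, with the gene as a dark bar. The broad WT peaks upstream and far downstream are absent or short in the knock-out clones, while the peak at the start is present in all 6.

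No other region lay near the locus. The nearest region before it lay at 13814946 to 13815642, 234 kb before its edge, and the nearest after it at 15245664 to 15246194, 846 kb past its edge. Those outer regions covered 633 and 657 bases in CREBBP-KO, 580 and 615 in EP300-KO and 685 and 576 in WT before the locus, and 461 and 485, 509 and 521, and 500 and 469 bases after it, in the same order. Just inside the edges lay the first region of the locus, 44.1 kb from its beginning, and the last, 122 kb from its end. An outer edge placed up to 234 kb further out on either side would hold the same peaks.

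The 66 kb before the promoter held most of the difference. It had 346 and 602 covered bases in CREBBP-KO and 727 and 1071 in EP300-KO, against 4331 and 2873 in WT. The promoter, taken as 2 kb either side of the start, had 432 and 882 bases in CREBBP-KO and 600 and 406 in EP300-KO, against 805 and 788 in WT. There the CREBBP-KO clones spanned the WT clones and the EP300-KO clones lay below them. The gene body had 182 and 264 bases in CREBBP-KO and 0 in both EP300-KO clones, against 393 and 212 in WT. With a promoter of 5 kb either side, the gene body held 0 bases in all 3 genotypes, since its only region then counted as promoter. The 263 kb after the gene had 234 and 434 bases in CREBBP-KO and 527 and 1078 in EP300-KO, against 2048 and 1645 in WT. The upstream stretch made up 29.0% and 27.6% of the covered bases of the locus in CREBBP-KO and 39.2% and 41.9% in EP300-KO, against 57.2% and 52.1% in WT. The promoter's share was 36.2% and 40.4% in CREBBP-KO and 32.4% and 15.9% in EP300-KO, against 10.6% and 14.3% in WT.

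**Figure D2:**
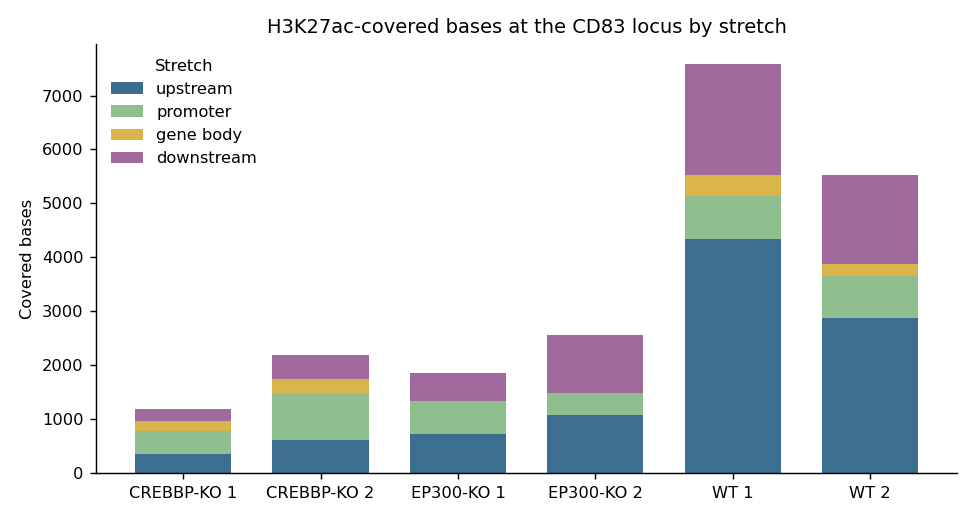
Covered bases per clone, stacked by upstream, promoter, gene body and downstream stretch. The upstream and downstream parts make up most of the height in WT clones, and both are shorter in all knock-out clones.

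Among the regions before the gene, the one centred 22.6 kb before the start (14094142 to 14096736) was a single broad peak in each WT clone. It covered 0 and 271 bases in CREBBP-KO and 0 and 310 bases in EP300-KO, against 2593 and 2022 bases in WT. The first clone of each knock-out had no peak there. The second clone of each had only 2 short peaks of 115 to 169 bases, 1 at the beginning of the WT peak and 1 near its middle. The authors' score, whose meaning is not stated, put those remnants near the bottom of their own lists, above 0.572% to 2.84% of peaks, while the WT peaks scored above 61.0% and 47.1% of theirs. The WT peaks were wider than 96.4% and 92.7% of the peaks in their lists.

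The second upstream region, centred 9.11 kb before the start (14108306 to 14109481), was present in all 6 clones with different extents. It covered 346 and 331 bases in CREBBP-KO and 727 and 594 in EP300-KO, against 1176 and 851 in WT. The groups did not overlap, with CREBBP-KO lowest and WT highest. How many regions show this order was not counted. Of all regions in both WT clones, 24.2% had both CREBBP-KO clones below both WT clones, and 54.9% had both EP300-KO clones below them. A core of 331 bases at 14108927 to 14109257 was covered in every clone, and it was the whole of the peak in the second CREBBP-KO clone. The authors' top score there was 43 and 42 in CREBBP-KO and 62 and 60 in EP300-KO, against 91 and 62 in WT. Next to it, 8.19 kb and 7.81 kb before the start, were 2 short regions that only the first WT clone held together, with 439 and 123 bases. The first of them also had 167 bases in the second EP300-KO clone.

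At the start of the gene, the region centred 198 bases after it (14117934 to 14118462) varied least. It covered 432 and 472 bases in CREBBP-KO and 418 and 406 in EP300-KO, against 441 and 528 in WT. CREBBP-KO clones overlapped the WT clones, whereas the larger EP300-KO value was under the smaller WT value. All clones shared 357 of these bases. A small peak centred 440 bases before the start was absent from 1 clone of each knock-out, with 0 and 213 bases in CREBBP-KO and 182 and 0 in EP300-KO, against 215 and 156 in WT. Another, centred 814 bases after the start, had 0 and 197 bases in CREBBP-KO and 0 in both EP300-KO clones, against 149 and 104 in WT.

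Inside the gene, 1 region lay 4.60 kb after the start (14122404 to 14122796). It covered 182 and 264 bases in CREBBP-KO and 0 in both EP300-KO clones, against 393 and 212 in WT. CREBBP-KO clones overlapped the WT clones, and EP300-KO had no peak. In the lists that held it, its score was above 7.83% and 26.3% of peaks in CREBBP-KO and 49.8% and 15.4% in WT. Whether it is exonic or intronic was not assigned, since an hg19 annotation was not used here.

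Of the regions after the gene, the one 93.1 kb from the start (14210846 to 14211315) was kept in all clones. It covered 234 and 434 bases in CREBBP-KO and 332 and 433 in EP300-KO, against 460 and 382 in WT, and all 3 genotypes overlapped. The region 159 kb from the start (14276363 to 14277986) covered 0 bases in both CREBBP-KO clones and 195 and 645 bases in EP300-KO, against 1588 and 1263 bases in WT. It was absent from both CREBBP-KO clones, and shorter in both EP300-KO clones than in either WT clone. In EP300-KO its scores were above 7.41% and 27.7% of peaks, and the best WT scores were above 67.1% and 55.7%.

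**Figure D3:**
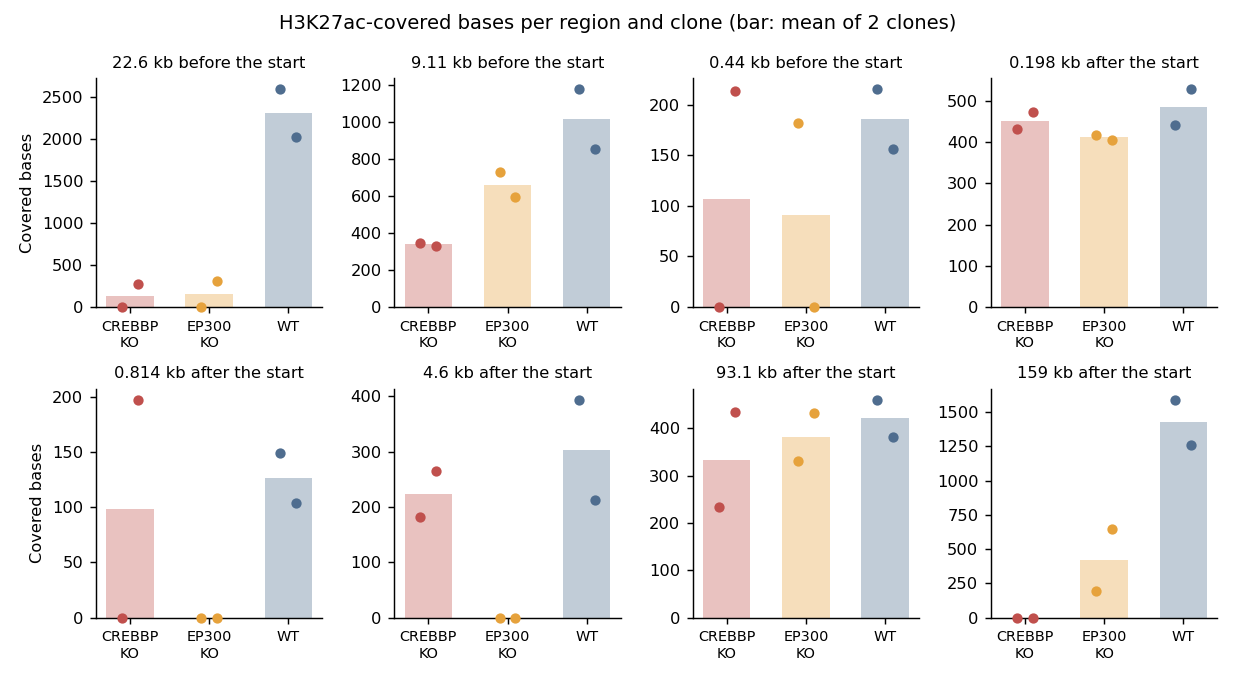
Covered bases in the 8 regions found in both WT clones, 1 panel each by distance from the start of CD83, with a dot per clone and a bar for the mean of 2 clones. Knock-out dots lie below both WT dots at 22.6 kb and 9.11 kb before and 159 kb after the start, and EP300-KO dots are at 0 at 0.814 and 4.60 kb after it.

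Most of the covered bases of the locus in WT, and of the difference from WT, lay in a few broad regions. The 3 regions with a WT mean of at least 1000 covered bases (22.6 and 9.11 kb before and 159 kb after the start) held 87.9% of the 4859.5 bases by which the CREBBP-KO mean lay below WT, and 80.8% of the 4343 bases for EP300-KO. These regions were picked by their WT level and held 72.5% of the WT mean, so a large part of the difference had to lie in them. The other 7 regions together covered 848 and 1580 bases in CREBBP-KO and 932 and 1006 in EP300-KO, against 2220 and 1382 in WT. There the CREBBP-KO clones overlapped the WT clones. Genome-wide, 10023 regions had a WT mean of at least 1000 bases, and the median CREBBP-KO mean was 99.2% of WT and the median EP300-KO mean 89.6%. The 3 CD83 regions stood at 5.87%, 33.4% and 0% of WT in CREBBP-KO, values that 0.13%, 0.778% and 0.12% of those regions reached or passed downwards. In EP300-KO they stood at 6.72%, 65.2% and 29.5%, which 2.01%, 18.2% and 5.30% reached or passed.

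Counted by presence, 8 of the 10 regions were in both WT clones and none was without a WT clone. One of the 8 was lost in CREBBP-KO, the region 159 kb after the start, against 4.94% of all regions that both WT clones had. This count was 4 without the second CREBBP-KO clone and 3 without the second WT clone. In EP300-KO 2 of the 8 were lost, those 0.814 and 4.60 kb after the start, against 14.8% genome-wide. Covered bases of both knock-out clones lay below both WT clones in 3 of the 8 regions in CREBBP-KO, where the genome-wide share was 24.2%, and in 6 of the 8 in EP300-KO, where it was 54.9%. In none of the 8 did both clones of a knock-out lie above both WT clones, a count without a genome-wide share here. A peak in all 6 clones was found in 3 of the 10 regions, against 44.8% of all merged regions. These shares stand beside counts from the comparison that chose the locus, and nothing is read from them.

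By single bases, 5374 were covered in both WT clones. Of these, 20.8% were also covered in both CREBBP-KO clones and 65.7% in neither, whereas genome-wide 85.5% and 3.84% were. For EP300-KO, 25.6% were covered in both clones and 50.6% in neither, against 75.0% and 14.9% genome-wide. All 4 knock-out clones kept 17.2% of the bases, a total of 922, and no knock-out clone kept 41.9%, against 70.9% and 2.42% genome-wide. The first WT clone alone covered 1766 bases of the locus and the second alone 84. Of the bases covered in any clone, these were 22.6% and 1.07%, against 6.63% and 1.46% genome-wide. Bases covered only outside the WT lists numbered 98, or 1.25%, against 11.6% genome-wide.

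Set against all 4096 windows of 350 kb that passed the filter, the locus lay low in both knock-outs. On the log2 scale of covered bases plus 100, its difference was -1.85 for CREBBP-KO minus WT, which 30 windows undercut, against a median of 0.01 over all windows. For EP300-KO minus WT it was -1.30, which 128 windows undercut, against a median of 0.02. These differences share the WT clones. Over the 6 clones, the 5 windows whose pattern was most like that of the locus had a Pearson r of 0.981 to 0.993, as a description over points that share libraries. The closest lay on chromosome 3 at 176800001 to 177150000, with 5.67 and 9.33 kb covered in CREBBP-KO and 7.67 and 8.96 kb in EP300-KO, against 18.1 and 15.2 kb in WT. The next lay on chromosome 17 at 77750001 to 78100000, with 2.83 and 3.77 kb in CREBBP-KO and 3.27 and 3.69 kb in EP300-KO, against 5.71 and 5.26 kb in WT. The others lay on chromosomes 3, 19 and 5, and the windows were not assigned to genes. The r does not measure the size of a difference. The third window, on chromosome 3, covered 0.967 and 1.02 kb in CREBBP-KO and 1.00 and 1.01 kb in EP300-KO, against 1.2 and 1.13 kb in WT.

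**Figure D4:**
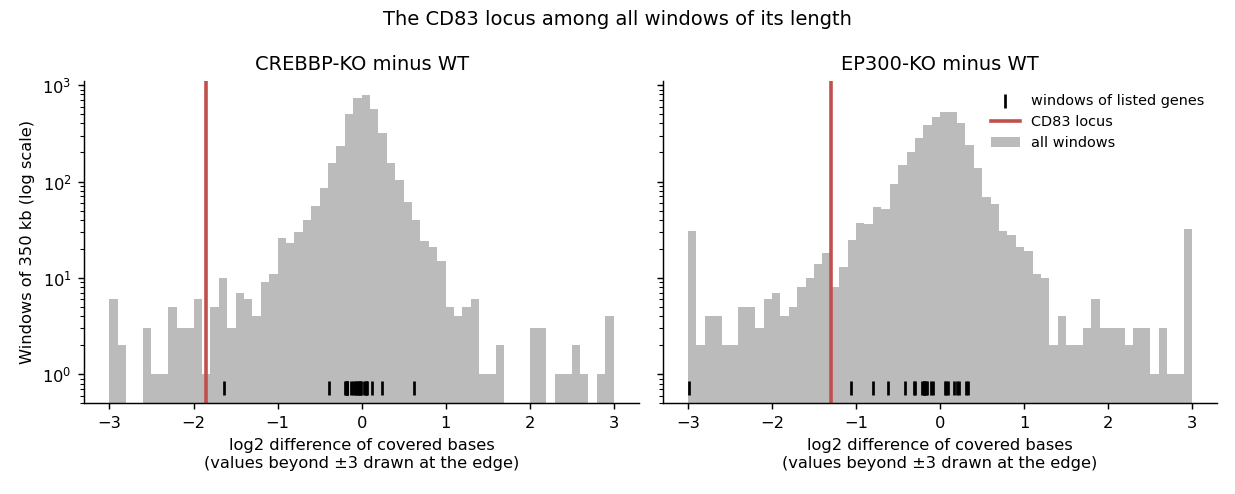
Number of windows of 350 kb (log axis) by log2 difference of covered bases from WT, for CREBBP-KO at left and EP300-KO at right, with the CD83 locus as a line and windows of listed light zone and NF-kB genes as ticks. The locus lies at -1.85 and -1.30, away from the bulk of windows and of most ticks.

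The knock-outs were also compared with each other, a contrast that did not choose the locus although it uses the same knock-out clones. In the regions 9.11 kb before and 159 kb after the start, both CREBBP-KO clones covered less than either EP300-KO clone. Neither difference passed the threshold. How many regions genome-wide separate the knock-outs in either direction was not counted, so nothing is read from such a separation. In limma's fit over 19860 regions, where 7.53% of regions were called, the region 9.11 kb before the start differed by -0.95 (CREBBP-KO minus EP300-KO, log2, SE 0.19, adjusted p = 0.0598). The region 159 kb after it differed by -2.39 (SE 0.45, adjusted p = 0.0517). The size of that last difference depends on the pseudocount, since CREBBP-KO had no covered base there, and it was -0.57 with a pseudocount of 1000. For the same reason the CREBBP-KO clones show almost no spread there, so its SE and adjusted p may be too small. This region had at least 500 bases in only 1 of the 4 knock-out clones and entered the fit through WT, so it could not be fitted with the 4 knock-out clones alone. With a spread allowed to vary with covered length, both passed (0.04997 and 0.0418), and their adjusted p ran from 0.0473 to 0.21 and from 0.0144 to 0.196 over the alternatives that could be fitted, 12 for the first and 11 for the second. The region 22.6 kb before the start differed by -0.24 (SE 0.86, adjusted p = 0.878), its sign turning with the clone left out. It too entered the fit only through the WT clones, since no knock-out clone reached 500 bases there, and its value says little about the knock-outs. Of these 3 regions limma called 0, and 2 had an unadjusted p under 0.05, as did 5043 of all 19860 regions. For the whole locus the difference was -0.55 (SE 0.25, adjusted p = 0.186 over 4096 windows, of which 11.6% were called). At the start of the gene and inside it, in the regions 198 bases and 4.60 kb after the start, both CREBBP-KO clones covered more than either EP300-KO clone, but these regions were too short for the fit.

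Other genes of the light zone and of the CD40 and NF-kB response were looked at through the windows that hold their starts, which hold other genes as well. Of 25 such windows, 23 passed the filter. None of the 23 was higher in EP300-KO than in WT in limma's fit over all windows, where 102 of all 4096 were. In the same fit 2 were lower, where 4.69% of all windows were. These held CD44, an adhesion receptor for hyaluronan, and SLAMF1, a receptor of the signalling lymphocyte activation family. The CD44 window covered 0 and 0.125 kb in EP300-KO, against 3.09 and 1.94 kb in WT (log2 difference -3.87, SE 0.63, adjusted p = 0.0355). The SLAMF1 window covered 18.2 and 20.0 kb in EP300-KO, against 42.5 and 35.7 kb in WT (-0.80, SE 0.10, adjusted p = 0.0204). Neither call held without the first or the second EP300-KO clone or without the first WT clone, and only SLAMF1 was called without the second WT clone or with no filter. Neither EP300-KO clone reached the filter's 1000 bases in the CD44 window, which passed it through WT and 1 CREBBP-KO clone. Of the 23 windows, 10 had an unadjusted p under 0.05 in EP300-KO, as did 1192 of all 4096 windows. These 10 went both ways, and the highest of them was that of IRF4 at 0.33 (limma adjusted p = 0.111). Of the 23, 15 lay below 0 in EP300-KO and 16 in CREBBP-KO. The share of all windows below 0 is not given here, so nothing is read from these counts. The median of the list was -0.16 in EP300-KO, against 0.02 over all windows.

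In CREBBP-KO none of the 23 windows passed in either direction in limma's fit. There 0.0488% of all windows were called lower, and 2 of all 4096 were called higher. An unadjusted p under 0.05 was found for 2 of the 23, and for 517 of all 4096 windows. The median was -0.05, against 0.01 over all windows, and the lowest, -1.64, was that of CD44, with 0.312 and 1.36 kb covered in CREBBP-KO (adjusted p = 0.389). None of the 23 lay below the CD83 locus in CREBBP-KO, and 1 did in EP300-KO. The highest of the 23 in CREBBP-KO, 0.62, was that of GPR183, a receptor for oxysterols that guides B-cell position. The GPR183 window covered 24.2 and 30.9 kb in CREBBP-KO, against 15.2 and 23.1 kb in WT (limma adjusted p = 0.411). The window of CD40, the receptor for T-cell help, covered 9.00 and 10.3 kb in CREBBP-KO and 9.35 and 9.17 kb in EP300-KO, against 12.3 and 10.7 kb in WT. That of MYC, a transcription factor induced in light zone cells selected to return to division, covered 11 and 12.1 kb in CREBBP-KO and 9.64 and 9.83 kb in EP300-KO, against 13.2 and 11.5 kb in WT. Neither passed in either knock-out. The window of NFKBIA, an inhibitor of NF-kB and its target gene, covered 3.05 and 4.25 kb in CREBBP-KO and 2.37 and 2.36 kb in EP300-KO, against 3.55 and 2.88 kb in WT. The window of CCR7, a chemokine receptor, covered 2.103 and 2.33 kb in CREBBP-KO and 2.60 and 2.56 kb in EP300-KO, against 2.70 and 2.16 kb in WT. These also did not pass (limma adjusted p from 0.137 to 0.88).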

How the data were processed

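H3K27ac peak lists of 6 immunoprecipitated SUDHL4 clones were analysed, and the 6 inputs entered only through them. Per the file headers, each list sets 1 clone's immunoprecipitated library against that clone's input, with no pooling of clones. Per the submitters' processing notes, CASAVA 1.8, Bowtie2 2.1.0 and SAMtools 0.1.19 were used with build hg19, and no source used here names the peak caller. Per the labels' protocols, reads were paired-end of 150 bp on fragments of 200 to 500 bp. The deposited starts and ends are hg19 positions, read as counted from 0, with an uncertainty of 1 base. The deposited score per peak, from 14 or 15 to 170, is the authors' own and only ranked peaks within 1 list. Depth per library is unknown, so no interval covers it.

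Peaks that shared a base were joined into regions, and a clone had a region with at least 1 covered base. Lost means present in both WT clones and absent from both knock-out clones. The gene's start and end are rounded to 1 kb, and distances run from that start to a region's middle. limma 3.58.1 (R 4.3.3) was fitted to log2(covered bases + 100). Each clone's median over the features that all 6 clones cover was subtracted, with all 6 clones sharing 1 estimate of the spread. Windows of 350 kb, drawn so that the locus was 1 of them, needed 1000 covered bases in at least 2 clones, and regions 500. Features with a Benjamini-Hochberg adjusted p under 0.05 were called. The fit was tested on simulated windows with the same spread in all of them. That test did not cover regions or clones with 0 bases. The pseudocount shrinks log2 differences of short regions. With 2 clones a group, p-values measure the spread between these clones.

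Members and gene lists were chosen with earlier results of these data known. Regions were named if both WT clones had them or any clone covered 1000 bases. Windows were named if they passed the threshold, held CD40, MYC, NFKBIA or CCR7, or, after their values were seen, were the lowest or highest listed. The starts of these and the marker genes on hg19 are general knowledge, with chromosomes checked against the GRCh38 gene table of RefSeq. One further listed B-cell marker is not reported here. Promoter sequences are from RefSeq (GRCh38.p14). Alternatives were equal list length (35054 best-scoring peaks), 50% of a region covered, peaks joined up to 500 bases apart, a promoter of 5 kb either side of the start, a pseudocount of 1000, no centring, no filter, only the 4 clones compared, each clone left out, and, added after the fits were seen, a spread that varies with covered length. Replicate numbers only name clones. Python 3.11.15 and matplotlib 3.10.9 were used.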

Additional observations from a re-analysis of the deposited data

How the results depend on the processing

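The locus stayed below WT in both knock-outs under every alternative. The log2 difference ranged from -2.11 to -1.62 for CREBBP-KO and from -1.54 to -1.08 for EP300-KO with 1 clone left out, and was -1.44 for CREBBP-KO with a pseudocount of 1000. Regions lost in CREBBP-KO were 1, and 2 at equal list length, 3 with 50% of a region required and 1 to 4 with a clone left out. In EP300-KO they were 2, and 1 both at equal list length and with peaks joined up to 500 bases apart, and 2 to 3 with a clone left out. None was gained under any of these.

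Between the knock-outs, the locus did not pass in any alternative (log2 difference -0.80 to -0.30 with a clone left out). At 22.6 kb before the start the difference was -1.27 to 0.77 with a clone left out, turning to 0.59 without the first CREBBP-KO clone and 0.77 without the second EP300-KO clone. The 475 called windows became 247 with no centring (58 lower and 189 higher, against 182 and 293) and 756 with the varying spread. They numbered 21 to 659 with a clone left out, with 82 and 87 without the first and second CREBBP-KO clone and 21 and 37 without the first and second EP300-KO clone. The 1496 called regions became 2526 with no filter and 747 to 1436 with a clone left out, with 863 and 747 without the first and second CREBBP-KO clone and 822 without the first EP300-KO clone. Windows lower in EP300-KO than in WT were 192, but 19 and 29 without the first and second EP300-KO clone, and those lower in CREBBP-KO were 2, but 46 without the second WT clone. Of the listed windows in EP300-KO, 2 were called, against 5 with a pseudocount of 1000 and with the varying spread, 1 with no filter and 0 to 3 with a clone left out. In CREBBP-KO the count was 0 to 1 with a clone left out. The cause of these shifts was not tested, and a fit with a clone left out also has fewer clones.

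No paired analysis was possible because replicate numbers only name clones and the labels pair nothing across genotypes. Short peaks near a list's lowest scores appear or vanish with the list length, and unknown depth limits what an absent peak shows.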

Other observations

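The listed windows of TNFAIP3 and CD58 had too few covered bases for the fit, and both are described here after their values were seen. TNFAIP3 encodes A20, an inhibitor of NF-kB signalling. Its window on chromosome 6 (137950001 to 138300000) covered 0.183 and 0.325 kb in CREBBP-KO and 0.223 and 0.242 kb in EP300-KO, against 2.04 and 0.728 kb in WT. All 4 knock-out clones lay below both WT clones, which differed from each other by more than the second WT clone differed from any knock-out clone. How many windows have all 4 knock-out clones below both WT clones was not counted, and the difference was not tested. The CD58 window covered 0.685 and 0.801 kb in CREBBP-KO and 0.912 and 0.753 kb in EP300-KO, against 0.99 and 0.785 kb in WT. There the genotypes overlapped.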
